A study of Mus musculus with 9 samples.

Results

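Livers of mice that received protoporphyrin IX zinc (ZnPP) before oleanolic acid (OA) were compared with livers of mice that received OA without ZnPP, 3 livers against 3, by poly(A) RNA-seq. The 6 libraries were taken by their labels alone, out of 9 in the series. The other 3 libraries came from corn oil controls (Cont), which entered the fit and are given beside the compared groups. All animals were male wild-type C57BL/6J mice, 6 to 8 weeks old. The OA group received saline by intraperitoneal injection and, 2 h later, OA in corn oil by gavage, labelled as 295.5 mg/kg (the treatment text gives 295.92 mg/kg). The ZnPP+OA group received ZnPP at 20 mg/kg in place of the saline, 2 h before the same OA. The Cont group received saline and corn oil, and livers were collected after 4 days of treatment in all groups. By the paper's methods, the animals of all groups were fasted before they were killed. No liver given ZnPP without OA was analysed here, so a change that ZnPP makes by itself and a change it makes in the response to OA cannot be told apart. The labels number the libraries within a group and do not say that each is a separate animal, so the p-values measure the spread between these libraries.

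OA is a plant triterpenoid that activates the transcription factor Nrf2 and, at high doses in mice, causes cholestasis, a failure of bile flow in which bile acids build up in the liver. Bile acids are made from cholesterol in hepatocytes, with Cyp7a1 as the rate-limiting enzyme and Cyp8b1 setting the share of cholic acid, and the bile acid receptor FXR (Nr1h4) lowers both enzymes when bile acids are high. ZnPP is a zinc metalloporphyrin that blocks the enzyme activity of heme oxygenase 1 (HO-1, encoded by Hmox1), which splits heme into biliverdin, iron and carbon monoxide.

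Promoters of 3 called genes whose levels are given below are shown first. Cyp8b1 is a bile acid enzyme that was higher in ZnPP+OA, Srxn1 (sulfiredoxin, an Nrf2 target) was lower, and Mt1 (metallothionein 1, the usual gauge of zinc) was also lower. The sequences are from RefSeq on the GRCm38.p6 build, written 5′ to 3′ on the strand of the gene, from 250 bases before to 50 after its start. Cyp8b1 lies at chr9:121916256-121916555 on the minus strand, Srxn1 at chr2:152105274-152105573 on the plus strand, and Mt1 at chr8:94178839-94179138 on the plus strand. Capitals mark CAAAGTCCA (a hepatocyte nuclear factor 4 type element) in Cyp8b1, TGANTCA (an AP-1 element) and TGACNNNGC (the core of an antioxidant response element, here read on the opposite strand) in Srxn1, and TGCACNC or TGCGCNC (the core of a metal response element) in Mt1.
Cyp8b1: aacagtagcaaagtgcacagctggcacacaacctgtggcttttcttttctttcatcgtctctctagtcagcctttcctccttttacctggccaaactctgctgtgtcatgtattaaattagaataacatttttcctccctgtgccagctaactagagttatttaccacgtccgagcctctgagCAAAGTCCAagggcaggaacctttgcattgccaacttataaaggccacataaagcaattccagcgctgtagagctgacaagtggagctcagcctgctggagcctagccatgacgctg
Srxn1: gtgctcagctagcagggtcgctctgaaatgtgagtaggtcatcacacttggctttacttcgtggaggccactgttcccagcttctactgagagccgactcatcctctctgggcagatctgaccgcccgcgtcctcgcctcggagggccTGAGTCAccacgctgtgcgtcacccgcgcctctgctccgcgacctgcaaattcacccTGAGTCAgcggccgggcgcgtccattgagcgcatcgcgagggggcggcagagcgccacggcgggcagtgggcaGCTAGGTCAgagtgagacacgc
Mt1: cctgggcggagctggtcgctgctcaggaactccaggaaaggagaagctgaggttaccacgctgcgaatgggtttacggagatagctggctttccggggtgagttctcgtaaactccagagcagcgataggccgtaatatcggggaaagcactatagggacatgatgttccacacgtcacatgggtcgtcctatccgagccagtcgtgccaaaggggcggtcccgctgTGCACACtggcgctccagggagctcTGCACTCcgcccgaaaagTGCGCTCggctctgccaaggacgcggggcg
Both strands were searched, and TGANTCA and TGACNNNGC can share their first letters. The Cyp8b1 window held CAAAGTCCA 1 time, the Srxn1 window held TGANTCA 2 times and TGACNNNGC 1 time, and the Mt1 window held the metal element 3 times. Among all 32841 RefSeq promoters of this length, 0.475% held CAAAGTCCA, 7.81% TGANTCA, 12.4% TGACNNNGC and 25.7% the metal element. The 15879 promoters of the genes tested, from which the called genes come, held them in 0.56%, 5.93%, 14% and 33.6%. A gene can have more than 1 promoter: the 282 promoters of genes called higher in ZnPP+OA came from 207 genes, and the 211 of genes called lower from 181. Of the 282, 2.84% held CAAAGTCCA, 8 promoters in all, 2 of them of the same gene, Hsd3b3. Among the 8 were those of Cyp8b1 and the P450 genes Cyp3a11 and Cyp2c67. Of the 211 promoters of genes called lower, 0.948% held CAAAGTCCA. TGANTCA was in 8.51% of the promoters of higher genes and 9.95% of those of lower genes, and TGACNNNGC in 9.93% and 16.6%. The metal element was in 22.7% and 28% of them, both below its share among the genes tested. A match is a description of letters, not a shown binding site.

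The libraries of the compared groups differed in what their reads came from. Deposited counts summed to 59521589, 60601202 and 85060187 in OA 1 to 3 and to 57315994, 59833693 and 48293360 in ZnPP+OA 1 to 3. Mitochondrial genes and their nuclear copies took 47.5%, 24.6% and 17.4% of the counts in the OA libraries and 77.8%, 84.3% and 74.1% in the ZnPP+OA libraries, against 53.7%, 92.0% and 58.6% in Cont. The groups compared did not overlap (29.8% ± 15.7 against 78.7% ± 5.13, SD, n = 3, two-sided exact permutation p = 0.1, the smallest that 3 against 3 allows). ZnPP+OA libraries therefore held fewer counts of all other genes, 9417867 to 12713311 against 31232063 to 70295836, and 15582 to 16600 genes with 10 or more counts against 18494 to 19357. Counts were scaled with trimmed mean of M-values (TMM) factors, which take such a difference in composition into account, and levels are given as counts per 1e+06 (CPM) of the scaled library. Hepatocyte markers were abundant in both groups: Alb, the gene of serum albumin, averaged 8989 CPM in OA and 10145 CPM in ZnPP+OA, and Hnf4a averaged 108 and 102 CPM. The 13 markers of red cells and of tissue next to the liver had none past the test and summed to 162 to 245 CPM in the OA and 171 to 188 CPM in the ZnPP+OA livers.

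**Figure D1:**
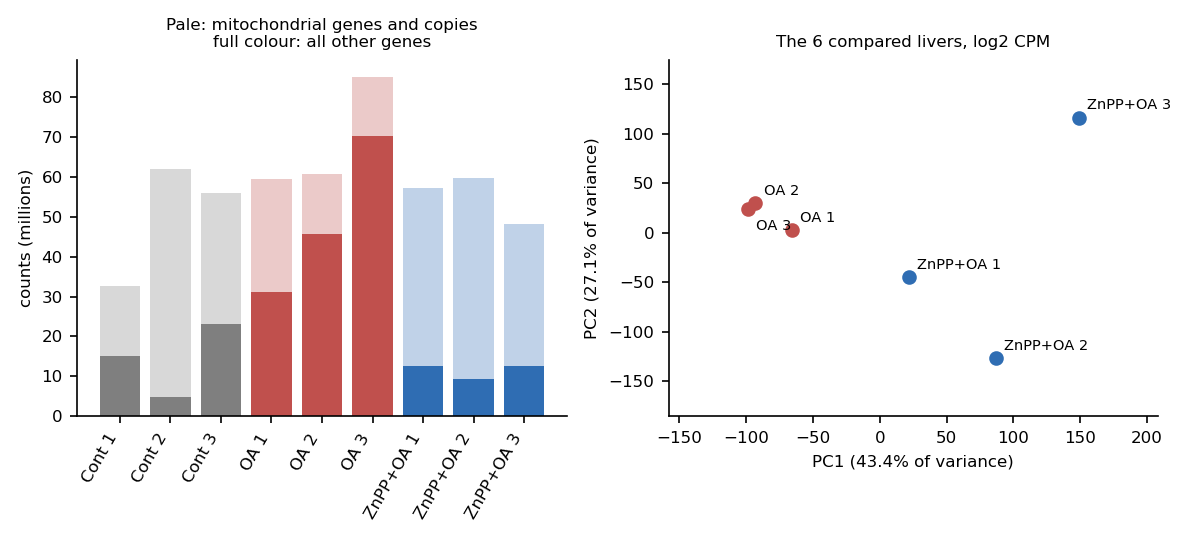
Left, deposited counts per library in units of 1e+06, with the pale part of each bar for mitochondrial genes and their nuclear copies; right, the first 2 principal components of the 6 compared libraries on log2 CPM. The pale part takes 17.4% to 47.5% of the counts in the OA libraries and 74.1% to 84.3% in the ZnPP+OA libraries. The groups separate along the first component, which holds 43.4% of the variance against 27.1% for the second. The ZnPP+OA libraries did not form a tight group. Over all genes tested, ZnPP+OA 1 was nearer to the OA libraries (distances 190 to 209) than to ZnPP+OA 2 (214) or ZnPP+OA 3 (246). The biological coefficient of variation (edgeR) was 0.42 within OA, 0.67 within ZnPP+OA and 0.87 within Cont.

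Of 18895 genes tested with edgeR's quasi-likelihood test, 303 (1.60%) were higher and 239 (1.26%) were lower in ZnPP+OA than in OA at an adjusted p under 0.05, and 3419 had an unadjusted p under 0.05. In 2566 genes (13.6%) all 3 ZnPP+OA livers lay above all 3 OA livers, and in 3629 (19.2%) all 3 lay below. All genes tested had a median log2 fold change of −0.07, and list medians below are to be read against it. List counts of genes called, or wholly above or below OA, are likewise to be read against the shares of all genes just given. The smallest change called was 1.12 on the log2 scale, and 49 higher and 12 lower genes reached 4. The direction of a list depends on the scaling: with library totals alone the median of all genes moved to −1.85 and the calls to 118 higher and 6317 lower, and with size factors from the median ratio it was 0.04 with 326 higher and 184 lower. For this reason each list median above 0 is followed by its value with library totals alone. ZnPP+OA 2 was the highest of its group in 221 of the 303 higher genes and ZnPP+OA 1 the lowest in 192, and among the OA libraries OA 1 was the highest in 210. In the 239 lower genes ZnPP+OA 2 was the lowest of its group in 146 and OA 1 the lowest of its group in 184.

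**Figure D2:**
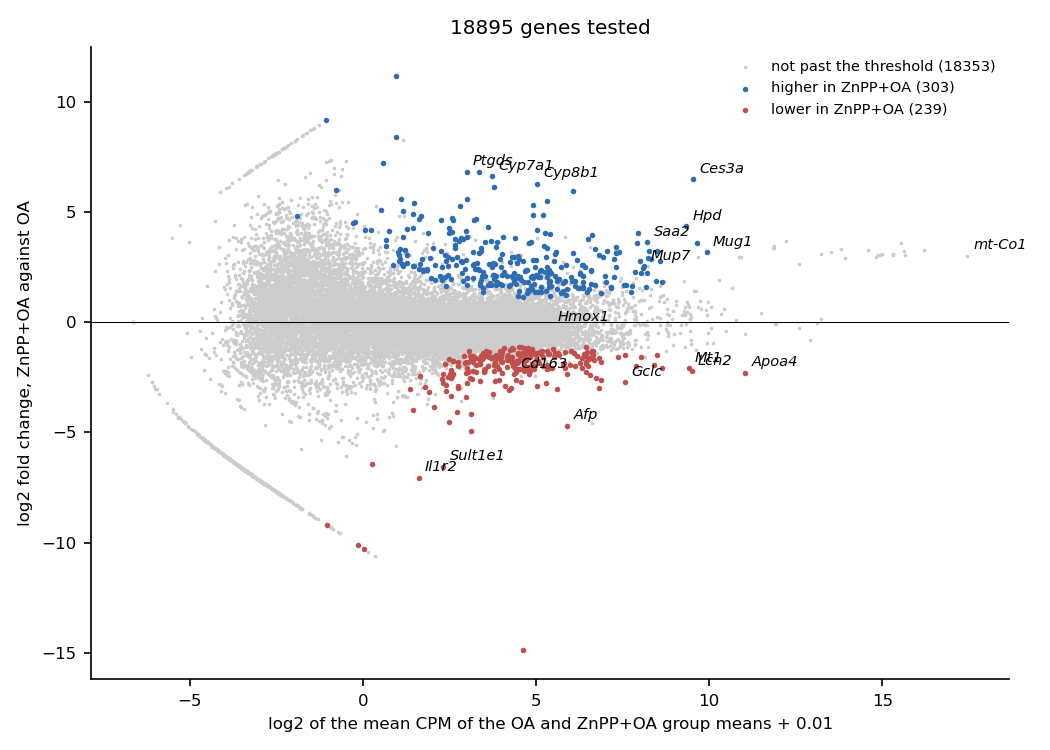
Log2 fold change of ZnPP+OA over OA (vertical) against mean CPM of the 6 livers on a log axis (horizontal) for 18895 genes, with the 303 higher genes in blue, the 239 lower genes in red and the other 18353 in grey. Called genes lie on both sides of 0 over the range of expression, and none lies within 1.12 of 0.

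The calls rested on few livers. With each of the 9 libraries left out in turn, the number of higher genes ranged from 32 without OA 2 to 483 without Cont 1, and the number of lower genes from 6 without ZnPP+OA 2 to 547 without Cont 1. All 542 called genes kept their sign each time. The call held in all 9 fits for 30 higher genes, 26 of them protein-coding, and for 4 lower genes, and in at least 8 fits for 47 and 13. The 4 lower genes were Gclc, which makes the rate-limiting step of glutathione synthesis, Srxn1, the hemoglobin scavenger receptor gene Cd163, and Cyp21a1, a steroid hydroxylase gene. Of the 30 higher genes, 23 belonged to the lists described here, 5 of them to the P450 list and 4 to the carboxylesterases. Beside the adjusted p of a call that did not hold, the largest adjusted p and the library left out are given.

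**Figure D3:**
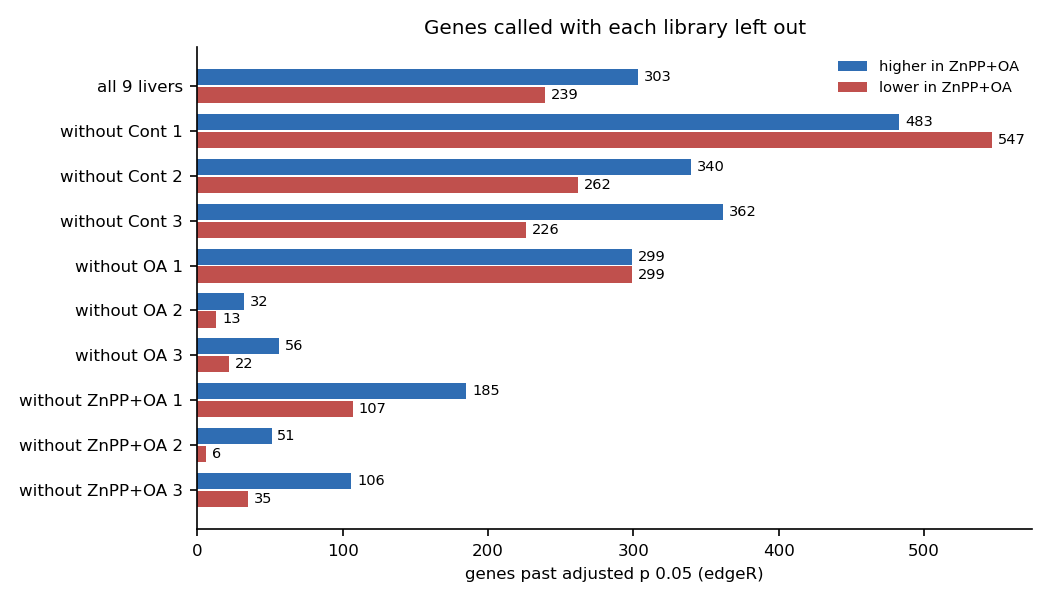
Number of genes called higher (blue) and lower (red) in ZnPP+OA than in OA with each of the 9 libraries left out. Leaving out OA 2 (32 higher, 13 lower), OA 3 (56 and 22) or ZnPP+OA 2 (51 and 6) removed most of the 303 and 239 calls, and leaving out Cont 1 raised them to 483 and 547.

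Bile acid synthesis genes were higher in ZnPP+OA. Of 18 list members tested, 6 rose and none fell, 9 lay wholly above OA and 2 wholly below, and the list median was 0.81 (−0.98 with library totals alone). Cyp7a1 measured 0.469, 0.246 and 0.0836 CPM in the OA livers, 29.2, 28.6 and 21.2 CPM in the ZnPP+OA livers and 19.3, 4.52 and 24.5 CPM in Cont. Every ZnPP+OA liver was far above every OA liver and inside or just above the range of Cont. Its log2 fold change was 6.66 ± 0.745 (SE, edgeR adjusted p = 0.00217), and the largest adjusted p on leaving out a library was 0.0191. Cyp8b1 measured 0.790, 1.10 and 0.562 CPM in OA, 42.8, 96.8 and 54.7 CPM in ZnPP+OA and 88.9, 16.3 and 113 CPM in Cont. The ZnPP+OA livers again did not overlap with OA, and ZnPP+OA 2 was the highest of the group (log2 fold change 6.31 ± 0.696, adjusted p = 0.00217, at most 0.0171 with a library left out). These are the enzymes that FXR lowers in cholestasis, as background, and they had been lower in OA than in Cont by log2 values of −5.95 and −6.47, a comparison that shares the OA livers.

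Later steps of the pathway rose less. Akr1d1, the reductase of the steroid ring, was at 3.84, 3.79 and 3.90 CPM in OA and at 10.02, 32.6 and 29.4 CPM in ZnPP+OA, where ZnPP+OA 1 lay below the other livers of its group (log2 fold change 2.64 ± 0.464, edgeR adjusted p = 0.0133, 0.0857 without ZnPP+OA 2). Cyp7b1, of the alternative route of synthesis, rose from 2.25, 1.23 and 2.18 CPM to 5.27, 26.3 and 6.10 CPM. Much of that rise came from ZnPP+OA 2, without which the log2 fold change of Cyp7b1 went from 2.73 to 1.56 and the adjusted p from 0.0313 to 0.198. The conjugating enzymes Slc27a5, which loads bile acids on coenzyme A, and Baat, which joins them to taurine or glycine, rose by log2 values of 1.87 and 1.64 (adjusted p = 0.0284 and 0.0443, the largest left-out values 0.171 without ZnPP+OA 2 and 0.2497 without OA 2), and with library totals alone both turned to values just below 0, −0.04 and −0.08. Akr1c6 (1.69, adjusted p = 0.0545) and Cyp27a1 (1.39, adjusted p = 0.136) lay wholly above OA without passing the test, and with library totals alone both turned below 0 (−0.17 and −0.40). Cyp39a1, an oxysterol hydroxylase, lay wholly below at 2.25, 0.847 and 1.504 CPM against 2.40, 7.45 and 9.61 CPM (−2.07, adjusted p = 0.0844). The other 9 members had adjusted p above 0.05 and log2 fold changes from −1.93 (Ch25h) to 1.03 (Cyp46a1, −0.72 with library totals alone). Without library 2 or 3 of OA or of ZnPP+OA the 6 calls of the list fell to 2 each time.

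Among 15 bile acid transporters, 3 rose and none fell (6 wholly above OA, 3 wholly below, list median 0.79, −0.97 with library totals alone). The share wholly below was close to the 19.2% of all genes. The 3 were the uptake carriers Slco1b2 and Slc10a1 and the pump into bile Abcb11. Other listed carriers of both kinds, Slco1a1 and Abcc2 among them, did not pass the test. Slco1b2, an organic anion uptake carrier, was at 28.8, 30.9 and 32.6 CPM in OA, 126, 173 and 100.2 CPM in ZnPP+OA and 188, 131 and 174 CPM in Cont. The OA livers were closely spaced and the lowest ZnPP+OA liver was well above them (log2 fold change 2.11 ± 0.313, edgeR adjusted p = 0.00682, 0.0577 without OA 2). Abcb11, the bile salt export pump, was at 46.9, 32.9 and 44.5 CPM in OA and 126, 129 and 116 CPM in ZnPP+OA, above the 95.4, 110.5 and 81.8 CPM of Cont (1.58 ± 0.284, adjusted p = 0.0147, 0.115 without OA 2, −0.20 with library totals alone). Slc10a1, the sodium-dependent uptake carrier NTCP, was at 5.49, 5.22 and 10.8 CPM in OA, 20.2, 47.2 and 33.6 CPM in ZnPP+OA and 145, 51.1 and 63.1 CPM in Cont. All ZnPP+OA livers lay above OA and below Cont (2.23 ± 0.472, adjusted p = 0.027, 0.155 without ZnPP+OA 2).

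The export carriers of the blood side of the hepatocyte did not pass the test. Abcc4 was at 4.71, 3.30 and 5.01 CPM in OA and 0.544, 0.706 and 1.97 CPM in ZnPP+OA (−2.01, edgeR adjusted p = 0.125). Slc51a, part of the OST exporter, was at 3.01, 4.79 and 2.99 CPM and at 0.922, 1.34 and 0 CPM (−2.26, adjusted p = 0.3803). Both had lower livers in ZnPP+OA without overlap, whereas Abcc3 (−0.00, adjusted p = 0.999) and Abcc2, the bilirubin glucuronide pump (0.13 ± 0.420, adjusted p = 0.915), overlapped. Slco1a1 lay wholly above OA (1.73, adjusted p = 0.0614). Without OA 2 none of the 15 passed. Of 24 nuclear receptors and hepatocyte factors, 1 passed, Klb, the coreceptor for the gut hormone FGF15 that limits bile acid synthesis. Klb rose from 1.19, 0.978 and 1.31 CPM to 3.26, 9.39 and 5.36 CPM (log2 fold change 2.37, adjusted p = 0.0313, 0.198 without ZnPP+OA 2). FXR itself, Nr1h4, was at 91.1, 29.4 and 34.1 CPM in OA and 152, 208 and 119 CPM in ZnPP+OA (1.63, adjusted p = 0.103, −0.11 with library totals alone).

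The mRNA of the enzyme that ZnPP inhibits did not pass the test, and its level against OA depended on the scaling. Hmox1 was at 39.97, 46.4 and 52.8 CPM in OA, 42.6, 30.5 and 46.5 CPM in ZnPP+OA and 30.6, 18.6 and 13.5 CPM in Cont. The compared groups overlapped, and each of their livers except ZnPP+OA 2 lay above the highest Cont liver (log2 fold change −0.22 ± 0.332, edgeR adjusted p = 0.807). With library totals alone its log2 fold change was −1.97 (adjusted p = 0.0412), near the −1.85 of all genes under that scaling. These values say nothing of HO-1 activity, which mRNA does not measure. None of the 5 heme degradation genes passed. Biliverdin reductase B, Blvrb, was at 95.5, 101 and 87.7 CPM in OA and 63.0, 40.3 and 42.4 CPM in ZnPP+OA (−0.96 ± 0.336, adjusted p = 0.145). Blvra lay wholly below as well (−0.85, adjusted p = 0.257), and Hmox2 (−0.05, adjusted p = 0.961) and Ugt1a1, which conjugates bilirubin (0.97, −1.05 with library totals alone, adjusted p = 0.484), overlapped.

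Of 11 heme synthesis genes, 2 rose and none fell (5 wholly above, 2 wholly below, list median 0.44, −1.38 with library totals alone). Alas2, the erythroid form of the first enzyme, was at 1.84, 2.23 and 1.8999 CPM in OA, 7.12, 9.46 and 8.12 CPM in ZnPP+OA and 24.7, 19.8 and 9.51 CPM in Cont. The 2 compared groups were each narrow and well apart (log2 fold change 2.05 ± 0.380, edgeR adjusted p = 0.0159, 0.0911 without OA 3). Alas2 also marks red cells, and the ranges given above sum red cell markers together with those of tissue next to the liver. Uros, the enzyme of uroporphyrinogen III formation, rose from 6.52, 3.802 and 4.37 CPM to 17.0, 18.04 and 12.96 CPM (1.71 ± 0.370, adjusted p = 0.0291, 0.182 without OA 2, −0.06 with library totals alone). Alas1, the form of the liver that heme represses, was at 108, 103 and 126 CPM in OA and 77.7, 95.2 and 90.8 CPM in ZnPP+OA (−0.35 ± 0.393, adjusted p = 0.721). Of the members that did not pass, Slc25a38, the mitochondrial glycine carrier, had the highest log2 fold change, 0.95 (−0.75 with library totals alone).

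Genes for the uptake of heme and iron gave 1 firm change. Cd163, a macrophage receptor for hemoglobin bound to haptoglobin, was at 33.9, 27.3 and 41.0 CPM in OA, 6.57, 8.58 and 5.14 CPM in ZnPP+OA and 3.96, 8.24 and 4.91 CPM in Cont. The ZnPP+OA livers lay in or just around the range of Cont and far below OA (log2 fold change −2.33 ± 0.359, edgeR adjusted p = 0.00734, at most 0.0455 with a library left out). Hp, haptoglobin, was at 9384, 9717 and 9998 CPM in OA and 5896, 5557 and 5370.0 CPM in ZnPP+OA (−0.79, adjusted p = 0.404). Of 21 iron handling genes 2 fell and none rose, with 7 wholly below OA, 4 wholly above and a list median of −0.48. The log2 fold changes of the list ran from −2.87 to 3.20. Hamp2, a hepcidin gene, did not pass the test. Its deposited FPKM were 3.24, 2.31 and 1.64 in OA, 4.81, 5.58 and 9.91 in ZnPP+OA and 90.3, 1.24 and 6.37 in Cont. FPKM are scaled to library totals, unlike the CPM given for the other genes, and are lower in libraries rich in mitochondrial reads. Id1, an early target of BMP signalling, fell from 62.6, 35.6 and 38.0 CPM to 9.08, 11.7 and 12.7 CPM (−2.03, adjusted p = 0.00965, 0.0684 without ZnPP+OA 2). Steap4, a metalloreductase, fell from 26.5, 77.9 and 66.1 CPM to 9.36, 7.73 and 6.26 CPM (−2.87, adjusted p = 0.0168, 0.107 without ZnPP+OA 2).

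Of 21 metallothioneins and zinc transporters, 3 fell and none rose in the livers given the zinc compound, 6 lay wholly below OA, and the list median was −0.36. The 3 were Mt1, Mt2 and Slc30a4. Mt1 was at 1381, 1165 and 743 CPM in OA, 214, 327 and 236 CPM in ZnPP+OA and 254, 121 and 82.5 CPM in Cont. Mt2, its neighbour with the same role, was at 430.2, 378 and 339 CPM, 70.9, 109.6 and 107 CPM, and 83.1, 45.0 and 25.2 CPM in these groups. In both genes every ZnPP+OA liver lay below every OA liver. Mt1 fell by 2.08 ± 0.458 and Mt2 fell by 2.00 ± 0.417 on the log2 scale (edgeR adjusted p = 0.0307 and 0.0255, the largest left-out values 0.144 without ZnPP+OA 3 and 0.113 without ZnPP+OA 2). Slc30a4, which moves zinc out of the cytosol, fell from 4.23, 8.36 and 10.6 CPM to 0.709, 0.494 and 0.383 CPM, below all Cont livers (1.60, 4.82 and 3.21 CPM). Its log2 fold change was −3.86 ± 0.589 (adjusted p = 0.00734, 0.0553 without ZnPP+OA 2). Mt3, a metallothionein outside the list that was named after its values were seen, held 760 counts in the OA libraries and none in ZnPP+OA, at least 57.7-fold lower against a floor of 3 counts over the group (adjusted p = 0.0381, 0.164 without OA 2).

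Nrf2 targets were lower in ZnPP+OA. Of 28 tested, 7 fell and none rose, 15 lay wholly below OA and none above, and the list median was −0.75. Gclc was at 439.8, 256 and 300.5 CPM in OA, 65.0, 39.0 and 46.6 CPM in ZnPP+OA and 54.3, 69.7 and 38.6 CPM in Cont. Srxn1, whose promoter is printed above, was at 155, 200.4 and 187 CPM in OA, 47.5, 17.4 and 30.5 CPM in ZnPP+OA and 17.96, 30.6 and 20.7 CPM in Cont. The ZnPP+OA livers of both genes lay in or near the range of Cont, and ZnPP+OA 2 was the lowest. Gclc changed by −2.73 ± 0.368 (edgeR adjusted p = 0.00422, at most 0.0427 with a library left out) and Srxn1 by −2.51 ± 0.389 (adjusted p = 0.00737, at most 0.0472). Cbr3, a carbonyl reductase, fell from 9.63, 17.6 and 17.9 CPM to 3.50, 1.45 and 2.71 CPM (−2.55, adjusted p = 0.0131, 0.0851 without ZnPP+OA 2). Pgd, a source of NADPH, and Slc7a11, the cystine importer, fell by 1.49 and 3.10 on the log2 scale (adjusted p = 0.0334 and 0.0411, the largest left-out values 0.190 without ZnPP+OA 2 and 0.210 without OA 2). Gclm, the partner subunit of Gclc (−0.34, adjusted p = 0.610), overlapped, and Nqo1, a much used Nrf2 gauge, was at 6.72, 8.18 and 7.17 CPM against 3.14, 0.988 and 1.89 CPM (−1.87, adjusted p = 0.188). Both were singled out after their values were seen. Without library 2 or 3 of OA or of ZnPP+OA the 7 calls fell to 2 each time.

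Of 20 genes that remove superoxide and peroxides, 3 fell and none rose (list median −0.61). Prdx5, a peroxiredoxin, fell from 213, 268 and 261 CPM to 97.0, 68.1 and 82.1 CPM, close to the 85.3, 76.5 and 96.8 CPM of Cont (log2 fold change −1.59 ± 0.293, edgeR adjusted p = 0.0156, 0.107 without ZnPP+OA 2). Gpx3, the secreted glutathione peroxidase, fell by 1.94 (adjusted p = 0.0191, 0.113 without ZnPP+OA 2). Gpx4, which removes lipid peroxides, was at 268, 543 and 360.1 CPM in OA, 156, 93.7 and 144 CPM in ZnPP+OA and 106, 94.7 and 162 CPM in Cont (−1.57, adjusted p = 0.0427, 0.229 without OA 2). All 3 calls of the list were lost without library 2 or 3 of OA or of ZnPP+OA. None of 25 glutathione S-transferases passed (2 wholly above, 5 wholly below, list median −0.12), and the share wholly below was close to the 19.2% of all genes.

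**Figure D4:**
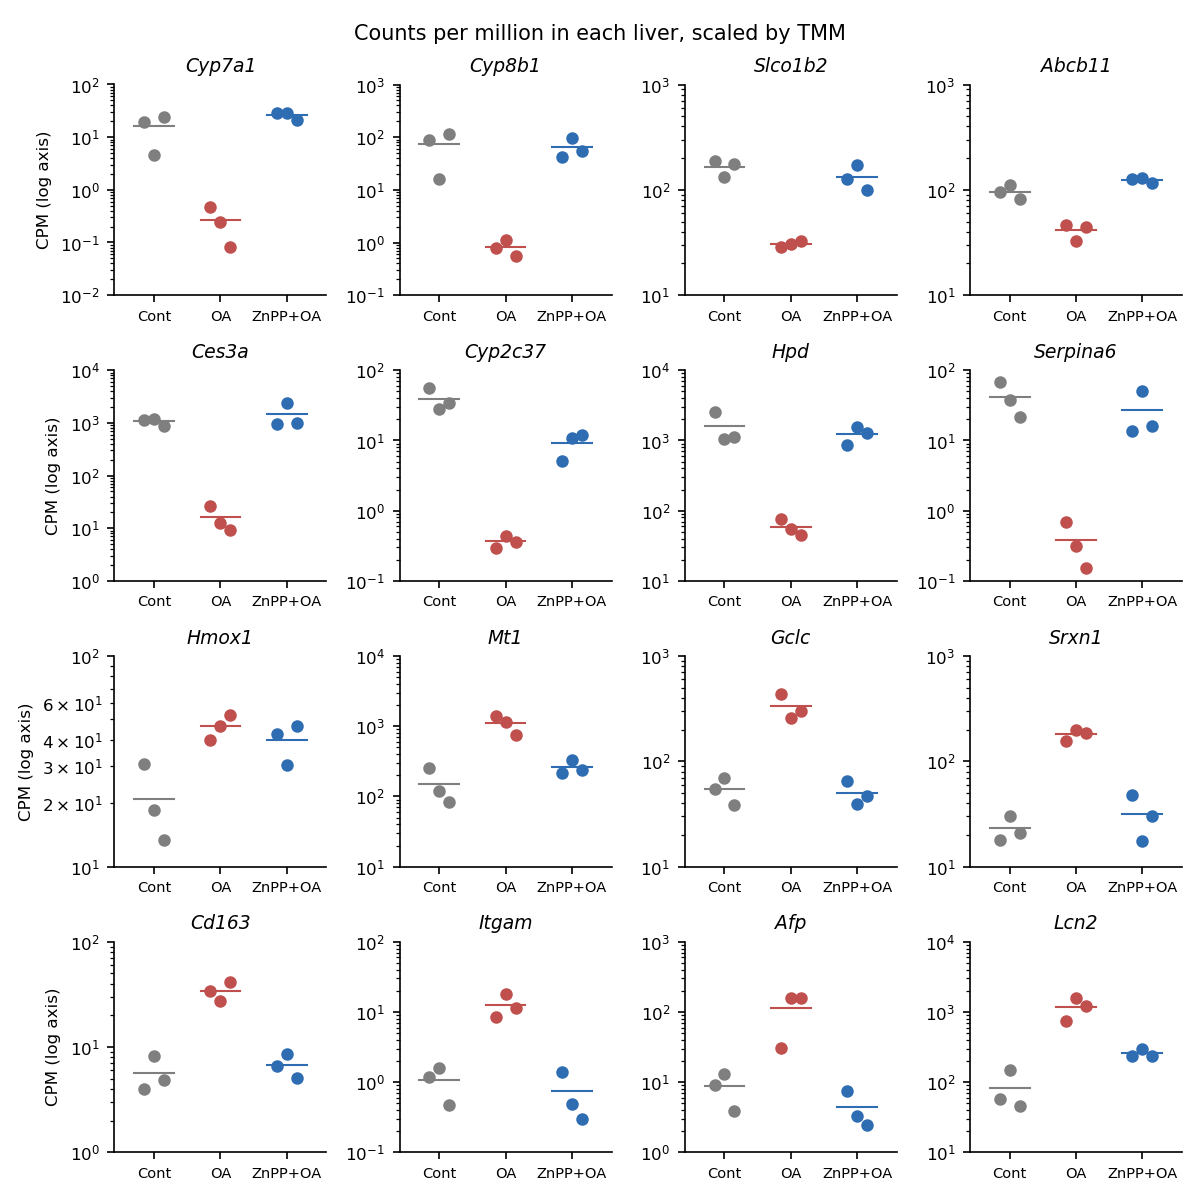
CPM on log axes for 16 genes in the Cont, OA and ZnPP+OA livers; each point is a liver and each line the mean of its group. In the upper 8 genes, such as Cyp7a1 (0.0836 to 0.469 CPM in the OA and 21.2 to 29.2 CPM in the ZnPP+OA livers), the ZnPP+OA livers lie above OA, and in the lower 8 they lie below, as in Gclc, except in Hmox1, where the groups overlap.

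Drug-metabolising P450 genes were higher. Of 35 tested, 13 rose and 1 fell, 21 lay wholly above OA and 1 wholly below, and the list median was 1.36 (−0.53 with library totals alone). The 3 genes of the list with the largest rises, Cyp2c54, Cyp2c37 and Cyp2c50, belong to the Cyp2c family. Cyp2c54 was at 0.414, 0.431 and 0.195 CPM in OA, 8.25, 23.2 and 9.60 CPM in ZnPP+OA and 73.9, 38.0 and 35.6 CPM in Cont. Cyp2c50 went from 1.22, 1.41 and 0.808 CPM to 10.6, 30.3 and 29.0 CPM, and Cyp2c37 from 0.294, 0.438 and 0.362 CPM to 5.13, 10.8 and 11.8 CPM. All 3 genes left the OA range in every ZnPP+OA liver and stayed below every Cont liver (Cont at 45.8 CPM or more for Cyp2c50 and 28.2 CPM or more for Cyp2c37). Cyp2c54 changed by 5.31 ± 0.547 and Cyp2c50 by 4.35 ± 0.564 (edgeR adjusted p = 0.0017 and 0.0033, at most 0.0129 and 0.0245 with a library left out). Cyp2e1, the ethanol-inducible form of pericentral hepatocytes, was at 41.6, 43.9 and 87.4 CPM in OA, 356, 847 and 460.0 CPM in ZnPP+OA and 2209.6, 358 and 1120.3 CPM in Cont (3.26 ± 0.634, adjusted p = 0.0184, 0.115 without OA 2). Cyp3a11, the main bile acid and drug hydroxylase of the mouse 3A family, rose from 34.0, 123 and 118 CPM to 553, 335 and 411 CPM, with ZnPP+OA 1 the highest (2.24, adjusted p = 0.0272, 0.0940 without OA 2). The gene that fell was Cyp2a4, a female-biased steroid hydroxylase, at 2.07, 2.35 and 1.64 CPM in OA and with no count in any ZnPP+OA library, at least 70.0-fold lower against a floor of 3 counts over the group (adjusted p = 0.0159, 0.0902 without OA 2). Cyp2c67, whose promoter held CAAAGTCCA, rose by 2.31 (adjusted p = 0.00898, 0.0572 without OA 2). Cyp2a5, a near copy of Cyp2a4, was called higher. Its log2 fold change was 2.17 to 2.47 with a library left out (largest left-out adjusted p 0.105, without OA 2). Close copies such as those of Cyp2c, or Cyp2a4 and Cyp2a5, can share reads, and the rule for such reads is not stated in the methods or the labels. Whether shared reads had a part in the fall of Cyp2a4 was not tested.

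Carboxylesterases, which split ester drugs and lipids, rose widely, with 9 of 14 higher, none lower and 10 wholly above OA (median 2.03, 0.19 with library totals alone). Ces3a was at 26.6, 12.7 and 9.22 CPM in OA, 964, 2392 and 1017 CPM in ZnPP+OA and 1114, 1192 and 887 CPM in Cont. The ZnPP+OA livers were within or above the range of Cont, ZnPP+OA 2 the highest (log2 fold change 6.49 ± 0.614, edgeR adjusted p = 0.000948, at most 0.0129 with a library left out). Ces3b went from 3.68, 2.06 and 0.553 CPM to 42.2, 243 and 114 CPM (5.99 ± 0.807, adjusted p = 0.00422, at most 0.0322). Ces1b went from 6.38, 2.50 and 4.02 CPM to 58.5, 92.8 and 64.2 CPM (4.06, adjusted p = 0.00185, at most 0.0171) and Ces2a from 4.90, 5.85 and 3.49 CPM to 31.6, 39.5 and 38.9 CPM (2.95, adjusted p = 0.00454, at most 0.0350). The 4 genes held their calls with any 1 library left out, and 4 to 8 of the 9 calls of the list held without each OA or ZnPP+OA library.

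Conjugating enzymes moved in both directions. Of 13 Ugt glucuronosyltransferases 7 rose and none fell (10 wholly above, median 2.01, 0.28 with library totals alone). Ugt2b38 was at 0.992, 0.909 and 1.07 CPM in OA, 9.24, 13.4 and 11.9 CPM in ZnPP+OA and 19.7, 21.0 and 6.87 CPM in Cont, with narrow groups far apart (log2 fold change 3.53 ± 0.442, edgeR adjusted p = 0.00283, at most 0.0277 with a library left out). Ugt3a2 rose from 1.57, 1.96 and 2.04 CPM to 17.3, 24.8 and 30.7 CPM (3.70, adjusted p = 0.00734, 0.0524 without OA 2). Of 9 sulfotransferases 2 rose and 1 fell. Sult2a8, the bile acid sulfotransferase of the mouse, was at 1.65, 1.96 and 2.29 CPM in OA, 30.1, 79.7 and 65.0 CPM in ZnPP+OA and 328, 121 and 55.0 CPM in Cont (4.89 ± 0.631, adjusted p = 0.0033, at most 0.0277). Sult1e1, which inactivates estrogens, went the other way, from 5.28, 14.0 and 10.3 CPM to 0.284, 0 and 0 CPM, where Cont held 0.484, 0 and 0.428 CPM. Its fitted log2 fold change of −6.56 ± 1.20 rests on few counts (adjusted p = 0.0155, 0.0940 without OA 2). Without OA 2, 1 of the 7 Ugt calls held.

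Male-biased, growth hormone dependent products were higher as well. Of 19 major urinary protein genes 12 rose, none fell and 18 lay wholly above OA (median 2.82, 1.03 with library totals alone). These genes are near copies, so their calls are not independent. Mup8 was at 9.85, 6.27 and 11.9 CPM in OA, 86.8, 92.1 and 76.8 CPM in ZnPP+OA and 349, 154 and 123 CPM in Cont, so that ZnPP+OA lay between the other groups with no overlap (log2 fold change 3.19 ± 0.432, edgeR adjusted p = 0.00422, at most 0.0368 with a library left out). Without OA 2 or OA 3 only 1 of the 12 calls held. Of 19 genes of the growth hormone and Igf1 axis 2 rose and 1 fell (median 0.46, −1.43 with library totals alone). Igfals, the carrier of Igf1 in plasma, and Ghr, the growth hormone receptor, rose by 2.52 and 1.63 (adjusted p = 0.0176 and 0.0270, the largest left-out values 0.107 and 0.164, both without ZnPP+OA 2), and with library totals alone Ghr turned to −0.23. Igfbp1, a binding protein induced by fasting and stress, fell from 56.5, 286 and 262 CPM to 42.2, 18.6 and 39.3 CPM (−2.59, adjusted p = 0.0337, 0.190 without ZnPP+OA 2). Of 21 steroid enzymes, mostly reductases and dehydrogenases, 2 rose and 2 fell, 10 lay wholly above OA and 3 wholly below (median 0.53, −1.31 with library totals alone). Hsd3b2 and Hsd3b3, both hydroxysteroid dehydrogenases, rose by 2.65 and 2.101 (adjusted p = 0.00937 and 0.0291, the largest left-out values 0.0700 without OA 2 and 0.185 without ZnPP+OA 2). Cyp21a1, the 21-hydroxylase of the adrenal gland, was at 14.1, 18.3 and 11.1 CPM in OA, 1.16, 1.62 and 1.34 CPM in ZnPP+OA and 0.877, 0.427 and 0.499 CPM in Cont (−3.40 ± 0.429, adjusted p = 0.00289, at most 0.0347). Akr1c18, which breaks down progesterone, fell from 8.86, 19.1 and 22.6 CPM to 1.47, 0 and 0.137 CPM (−4.92, adjusted p = 0.031, 0.136 without ZnPP+OA 3).

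Plasma protein genes moved in both directions. Of 46 complement and coagulation genes 8 rose and 3 fell (26 wholly above, 6 wholly below, median 0.77, −1.06 with library totals alone), and of 33 secreted plasma proteins 5 rose and 1 fell (median 0.63, −1.18 with library totals alone). Serpina6, the corticosteroid-binding globulin, was at 0.698, 0.315 and 0.153 CPM in OA, 13.7, 51.4 and 16.1 CPM in ZnPP+OA and 67.7, 37.6 and 21.5 CPM in Cont. All ZnPP+OA livers lay far above OA (log2 fold change 6.14 ± 0.751, edgeR adjusted p = 0.00283, at most 0.0245 with a library left out). Klkb1, plasma prekallikrein, rose from 14.7, 13.8 and 11.8 CPM to 68.5, 84.5 and 55.9 CPM (2.37 ± 0.297, adjusted p = 0.00283, at most 0.0322), and C8b, of the terminal complement complex, from 7.99, 7.68 and 12.0 CPM to 35.1, 62.2 and 61.5 CPM (2.52, adjusted p = 0.00422, at most 0.0456). The 3 that fell in the complement and coagulation list included Plat, the tissue plasminogen activator, and Cfp, properdin. Plat fell from 8.33, 17.9 and 23.1 CPM to 1.49, 1.06 and 0.191 CPM (−4.17 ± 0.677, adjusted p = 0.00937, 0.0693 without ZnPP+OA 2), and Cfp from 75.5, 55.1 and 73.5 CPM to 27.0, 25.2 and 25.4 CPM (−1.40, adjusted p = 0.0171, 0.106 without ZnPP+OA 2). Apoa4, a lipoprotein gene that rises in fatty and injured liver, fell from 2274, 3910.2 and 4356 CPM to 739, 404 and 1019 CPM, in and around the 478, 529 and 1278 CPM of Cont (−2.29, adjusted p = 0.0409, 0.219 without ZnPP+OA 2).

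Acute phase genes went in opposite directions. Of 30 tested, 2 rose and 4 fell (Lcn2, Cd14 and the 2 metallothioneins above), with a median of 0.10 (−1.71 with library totals alone). Saa2, serum amyloid A2, was at 38.8, 75.0 and 18.5 CPM in OA, 351, 676 and 621 CPM in ZnPP+OA and 14.1, 41.4 and 109 CPM in Cont. It was higher in every ZnPP+OA liver than in any liver of the other groups (log2 fold change 3.64 ± 0.705, edgeR adjusted p = 0.0184, 0.0911 without OA 3), and its near copy Saa1, with which it can share reads, rose with it (2.92, adjusted p = 0.0344, 0.185 without OA 3). Lcn2, lipocalin 2, did the reverse, at 752, 1563 and 1232 CPM in OA, 238, 299 and 235 CPM in ZnPP+OA and 56.9, 149 and 45.8 CPM in Cont. The 3 groups of Lcn2 did not overlap, and ZnPP+OA lay between Cont and OA (−2.20 ± 0.482, adjusted p = 0.0301, 0.143 without ZnPP+OA 3). None of the 6 calls of the list held without OA 2 or without OA 3.

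Of 30 urea cycle and amino acid genes 11 rose, none fell and 21 lay wholly above OA (median 1.25, −0.56 with library totals alone). Hpd, the tyrosine-breakdown dioxygenase, was at 76.0, 54.8 and 44.9 CPM in OA, 851, 1553 and 1273 CPM in ZnPP+OA and 2565, 1059 and 1122 CPM in Cont. Prodh2, which opens the breakdown of hydroxyproline, was at 64.8, 17.5 and 25.8 CPM, 309, 610.5 and 411 CPM, and 343, 422 and 414 CPM in these groups. In both genes the lowest ZnPP+OA liver was several times the highest OA liver. Hpd changed by 4.39 ± 0.512 and Prodh2 by 3.62 ± 0.506 (edgeR adjusted p = 0.0024 and 0.00537, at most 0.0245 and 0.0382 with a library left out). The urea cycle lyase Asl and the histidine-degrading Hal each rose by 2.78 (adjusted p = 0.00605 and 0.00682, both 0.0539 without OA 2). Of 16 tryptophan and NAD genes 3 rose and none fell (median 1.07, −0.71 with library totals alone). Haao, which makes the precursor of quinolinic acid, rose from 38.9, 19.4 and 18.9 CPM to 101, 179.7 and 157 CPM (2.50, adjusted p = 0.00734, 0.0637 without OA 2). Of 26 methionine, glycine and folate genes 4 rose and none fell (median 0.85, −0.95 with library totals alone). Among them Cth, the last enzyme of cysteine synthesis from methionine, rose from 11.6, 19.2 and 17.6 CPM to 58.5, 109 and 131 CPM (2.63, adjusted p = 0.0238, 0.113 without ZnPP+OA 2). Without OA 2 the calls of these 3 lists fell to 2, 0 and 0.

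Genes of both ends of the liver lobule rose, those around the central vein more often. Of 22 pericentral hepatocyte genes 9 rose and none fell (median 1.46, −0.38 with library totals alone), and of 20 periportal genes 5 rose and 1 fell (median 0.55, −1.28 with library totals alone); the difference between these lists was not tested. Rhbg, a pericentral ammonium carrier, went from 0.901, 0.574 and 1.18 CPM to 10.6, 10.8 and 4.24 CPM (log2 fold change 3.27, edgeR adjusted p = 0.00734, 0.0598 without OA 2). Car3, carbonic anhydrase 3 of hepatocytes, was at 1.87, 1.86 and 1.47 CPM in OA, 38.4, 131 and 65.7 CPM in ZnPP+OA and 299, 126 and 55.5 CPM in Cont, with no overlap of the compared groups (5.50 ± 0.658, adjusted p = 0.00248, at most 0.0225 with a library left out). Of 27 genes of the retinoid list 5 rose and none fell (median 0.26, −1.26 with library totals alone), among them Adh4 (2.42, adjusted p = 0.00707, 0.0586 without OA 2). The largest log2 fold change in the list, 5.50, is the value given above for Car3, a carbonic anhydrase. Stra6 lay outside the list. Stra6, the receptor that takes up retinol, had no count in any OA library and measured 2.55, 5.54 and 3.36 CPM in ZnPP+OA, at least 567-fold higher against a floor of 3 counts over the group (adjusted p = 0.0407, 0.164 without ZnPP+OA 2); among Cont libraries only Cont 1 held it, at 3.45 CPM. Clock genes gave 2 rises and 1 fall of 20 (median 0.30, −1.46 with library totals alone). Dbp, an output factor of the clock, was at 4.49, 2.28 and 3.30 CPM in OA, 25.2, 118 and 42.7 CPM in ZnPP+OA and 8.68, 45.9 and 82.8 CPM in Cont (4.20 ± 0.761, adjusted p = 0.0151, 0.0869 without OA 2), and the labels give no hour of collection.

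Lipid and sugar lists held few called genes. Of 42 PPAR alpha targets and fatty acid oxidation genes none passed, and neither did any of 23 genes of the tricarboxylic acid cycle (medians −0.02 and −0.16). Of 26 fatty acid synthesis genes 3 rose (median −0.02). Elovl3, an elongase of very long fatty acids, was at 0.0368, 0.554 and 0.348 CPM in OA, 11.02, 18.3 and 17.8 CPM in ZnPP+OA and 34.9, 18.6 and 14.4 CPM in Cont (log2 fold change 5.62 ± 0.726, edgeR adjusted p = 0.0033, at most 0.0227 with a library left out). All ZnPP+OA livers were above OA by more than a factor of 10, and the groups ZnPP+OA and Cont overlapped. Of 26 cholesterol synthesis and uptake genes 1 rose, none fell and 7 lay wholly below OA, as did 19.2% of all genes (median −0.47). Of 38 genes listed under glycolysis and gluconeogenesis 5 rose and none fell (11 wholly above, 8 wholly below, median −0.04). The share wholly below was close to the 19.2% of all genes. The largest rise among the 5 was that of Upp2, a uridine phosphorylase of the liver, which acts on a nucleoside. It rose from 2.12, 1.51 and 0.743 CPM to 15.1, 107 and 52.99 CPM (5.33 ± 0.667, adjusted p = 0.00283, at most 0.0245). Of 32 fat uptake and lipid droplet genes 2 rose and 4 fell, and 13 lay wholly below OA (median −0.73). Plin2, the coat protein of droplets, was at 367, 577 and 677 CPM in OA, 165, 88.1 and 172 CPM in ZnPP+OA and 162, 92.7 and 184 CPM in Cont, so that ZnPP+OA and Cont overlapped and both lay below OA (−1.93 ± 0.405, adjusted p = 0.0262, 0.157 without ZnPP+OA 2). Fabp4, the fatty acid binding protein of adipocytes and macrophages, fell from 31.3, 95.1 and 76.2 CPM to 9.95, 6.46 and 14.1 CPM (−2.73, adjusted p = 0.0131, 0.0895 without ZnPP+OA 2). Without OA 2 none of the 4 falls in this list held.

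Genes of macrophages were lower in ZnPP+OA. In bulk liver fewer cells of a type and less RNA per cell cannot be told apart, so these values are given as levels in the tissue. Of 16 Kupffer cell markers 6 fell, none rose and 11 lay wholly below OA (median −1.39), and the markers summed to 968 to 1320 CPM in the OA and 337 to 503 CPM in the ZnPP+OA livers and 233 to 443 CPM in Cont. Of 28 monocyte and recruited macrophage genes 9 fell and 1 rose, with 21 wholly below OA (median −1.43, sums of 961 to 1599, 395 to 572 and 271 to 398 CPM). The sums of the OA livers did not overlap with those of either other group. Msr1, a scavenger receptor of macrophages, was at 33.4, 50.3 and 39.7 CPM in OA and 8.80, 8.68 and 10.2 CPM in ZnPP+OA (log2 fold change −2.15 ± 0.318, edgeR adjusted p = 0.00682, 0.0503 without ZnPP+OA 2). C1qb, of the first complement component, fell from 85.9, 157 and 187 CPM to 25.6, 21.4 and 43.9 CPM (−2.24, adjusted p = 0.011, 0.0857 without ZnPP+OA 2), and Ctss, the cathepsin of antigen-presenting cells, from 37.3, 63.1 and 95.2 CPM to 13.4, 14.3 and 16.8 CPM (−2.14, adjusted p = 0.00937, 0.0745 without ZnPP+OA 2). Itgam, the integrin CD11b of recruited myeloid cells, was at 8.40, 17.9 and 11.3 CPM in OA, 1.42, 0.494 and 0.301 CPM in ZnPP+OA and 1.18, 1.59 and 0.471 CPM in Cont (−4.06 ± 0.663, adjusted p = 0.00963, 0.0809 without ZnPP+OA 2). The gene that rose was Lyz1, a lysozyme, from 1.37, 1.43 and 0.595 CPM to 5.46, 6.88 and 5.71 CPM (2.41, adjusted p = 0.0313, 0.174 without OA 3). Lyz1 was named after its values were seen, and its near copy Lyz2 can share reads with it. Without ZnPP+OA 2 the falls in the Kupffer cell and monocyte lists numbered 1 and 0, and without OA 2 they numbered 2 and 1.

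Other inflammatory lists were lower on balance with few calls. Of 17 neutrophil genes 1 fell and 10 lay wholly below OA (median −1.77, sums of 61.0 to 145 CPM in the OA and 35.2 to 38.3 CPM in the ZnPP+OA livers and 14.5 to 35.4 CPM in Cont). The 1 was Fpr2, a formyl peptide receptor, at 4.40, 11.5 and 4.16 CPM in OA and 0.662, 1.02 and 0.547 CPM in ZnPP+OA (log2 fold change −3.17, edgeR adjusted p = 0.0168, 0.183 without OA 2). Of 29 chemokine genes 3 fell and none rose (median −1.13). Cxcl1, a neutrophil attractant, was at 32.1, 41.4 and 26.6 CPM in OA, 5.39, 3.21 and 3.23 CPM in ZnPP+OA and 2.51, 12.0 and 4.41 CPM in Cont (−3.08 ± 0.516, adjusted p = 0.011, 0.0885 without ZnPP+OA 2). Ccl9 fell by 1.94 (adjusted p = 0.0206, 0.123 without ZnPP+OA 2), and Ccl2, the monocyte attractant, lay wholly below OA without passing (18.2, 14.0 and 9.08 CPM against 3.64, 1.38 and 4.32 CPM, adjusted p = 0.0651). Of 35 interleukin 1, TNF and inflammasome genes 5 fell and none rose (median −1.10). Tnf had 457 counts in the OA libraries and none in ZnPP+OA, at least 34.7-fold lower against the floor of 3 counts over the group, and did not pass. Cyba, the p22 subunit shared by NADPH oxidases, fell from 34.0, 50.3 and 44.4 CPM to 9.81, 9.60 and 9.11 CPM (−2.17, adjusted p = 0.0217, 0.126 without ZnPP+OA 2), and all 7 oxidase genes lay wholly below OA (median −1.41). Lymphocyte genes went up instead, with 4 of 27 higher, none lower and 11 wholly above OA (median 1.77, −0.01 with library totals alone, sums of 8.84 to 15.9 CPM in the OA and 30.1 to 50.3 CPM in the ZnPP+OA livers and 39.4 to 102 CPM in Cont). None of 40 interferon response, 26 endothelial or 10 MHC class II genes passed. Of the endothelial genes 12 lay wholly below OA and none above (median −0.64), and of the MHC class II genes 5 lay wholly above and 1 below. Of the interferon response genes 8 lay wholly below and 1 above (median −0.32), and the share below was close to the 19.2% of all genes. Without OA 2 none of the neutrophil, chemokine, interleukin 1 and TNF or oxidase calls held.

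Immediate early, cytoskeletal and fetal liver genes were lower. Of 26 immediate early and AP-1 genes 8 fell, none rose and 19 lay wholly below OA (median −1.29). Egr1, a transcription factor switched on within minutes of injury, was at 16.8, 30.7 and 20.8 CPM in OA, 6.62, 4.24 and 4.10 CPM in ZnPP+OA and 4.26, 3.48 and 2.21 CPM in Cont (log2 fold change −2.19 ± 0.380, edgeR adjusted p = 0.0131, 0.0895 without ZnPP+OA 2). Fos, a subunit of AP-1, fell from 9.11, 8.01 and 8.72 CPM to 1.63, 1.27 and 0.984 CPM (−2.73, adjusted p = 0.0168, 0.1003 without ZnPP+OA 2), and none of the 8 calls held without OA 2, OA 3 or ZnPP+OA 2. Of 36 actin, tubulin, keratin and annexin genes 8 fell, none rose and 25 lay wholly below OA (median −1.02). The list did not hold the keratin genes Krt1, Krt5 and Krt10, which were called higher in ZnPP+OA. Krt8, the keratin of hepatocytes and bile ducts, was at 491, 619.7 and 816 CPM in OA, 229.9, 79.5 and 155 CPM in ZnPP+OA and 78.9, 101 and 73.0 CPM in Cont, the ZnPP+OA livers spread from the level of Cont upward (−2.05 ± 0.412, adjusted p = 0.0214, 0.113 without ZnPP+OA 2). Of 21 fetal liver genes 3 fell and none rose (median −0.73). Afp, alpha-fetoprotein, was at 30.2, 159.9 and 156 CPM in OA, 7.52, 3.35 and 2.46 CPM in ZnPP+OA and 9.10, 13.2 and 3.87 CPM in Cont, with OA 1 well below the other OA livers (−4.69 ± 0.702, adjusted p = 0.00682, 0.0594 without ZnPP+OA 2). Of 27 cholangiocyte genes 1 fell and none rose (median 0.02, −1.92 with library totals alone), and of 32 stellate cell and fibrosis genes 2 fell (median −0.78). Thbs1, thrombospondin 1, was among the 2 (−1.79, adjusted p = 0.0415, 0.256 without OA 2).

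Lists of basic cell machinery encoded in the nucleus had medians from −0.83 to −0.36. The smallest change called for a single gene was 1.12, which is not a limit for a list median. Log2 fold changes were below 0 in all 80 cytosolic ribosomal protein genes and in 69 of 80 nuclear genes of oxidative phosphorylation. The mitochondrially encoded list moved the other way and further. Of 80 cytosolic ribosomal protein genes 4 fell, none rose and 58 lay wholly below OA, against 19.2% of all genes (median −0.83). Of 80 nuclear genes of oxidative phosphorylation 2 fell and 34 lay wholly below (median −0.50), Ndufa4 among them, at 39.1, 74.5 and 70.4 CPM in OA and 22.9, 20.8 and 23.4 CPM in ZnPP+OA (log2 fold change −1.46, edgeR adjusted p = 0.0319, 0.172 without ZnPP+OA 2). None of 42 proteasome or 78 mitochondrial ribosomal protein genes passed (medians −0.36 and −0.36), and of 64 lysosome genes 6 fell (median −0.62), Ctss among them. The 13 protein genes of the mitochondrial genome all lay wholly above OA and none passed the test (median 3.11, 1.37 with library totals alone). Among them mt-Co1, a subunit of cytochrome oxidase, was at 72222, 28561 and 16514 CPM in OA, 246797, 465885 and 249665 CPM in ZnPP+OA and 118933, 874287 and 133365 CPM in Cont (3.04 ± 1.24, adjusted p = 0.213). Of the 13 genes, 12 passed with Cont 2 left out of the fit, 3 without Cont 1 and 1 without Cont 3. None of the 13 passed with any OA or ZnPP+OA library left out. Their level moves with the mitochondrial share of each library given above, and the part of that share in the other lists was not tested beyond leaving these genes out, which gave 301 higher and 230 lower genes. With counts thinned to 1 depth for all libraries, chosen after seeing the data, 420 were higher and 207 lower.

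**Figure D5:**
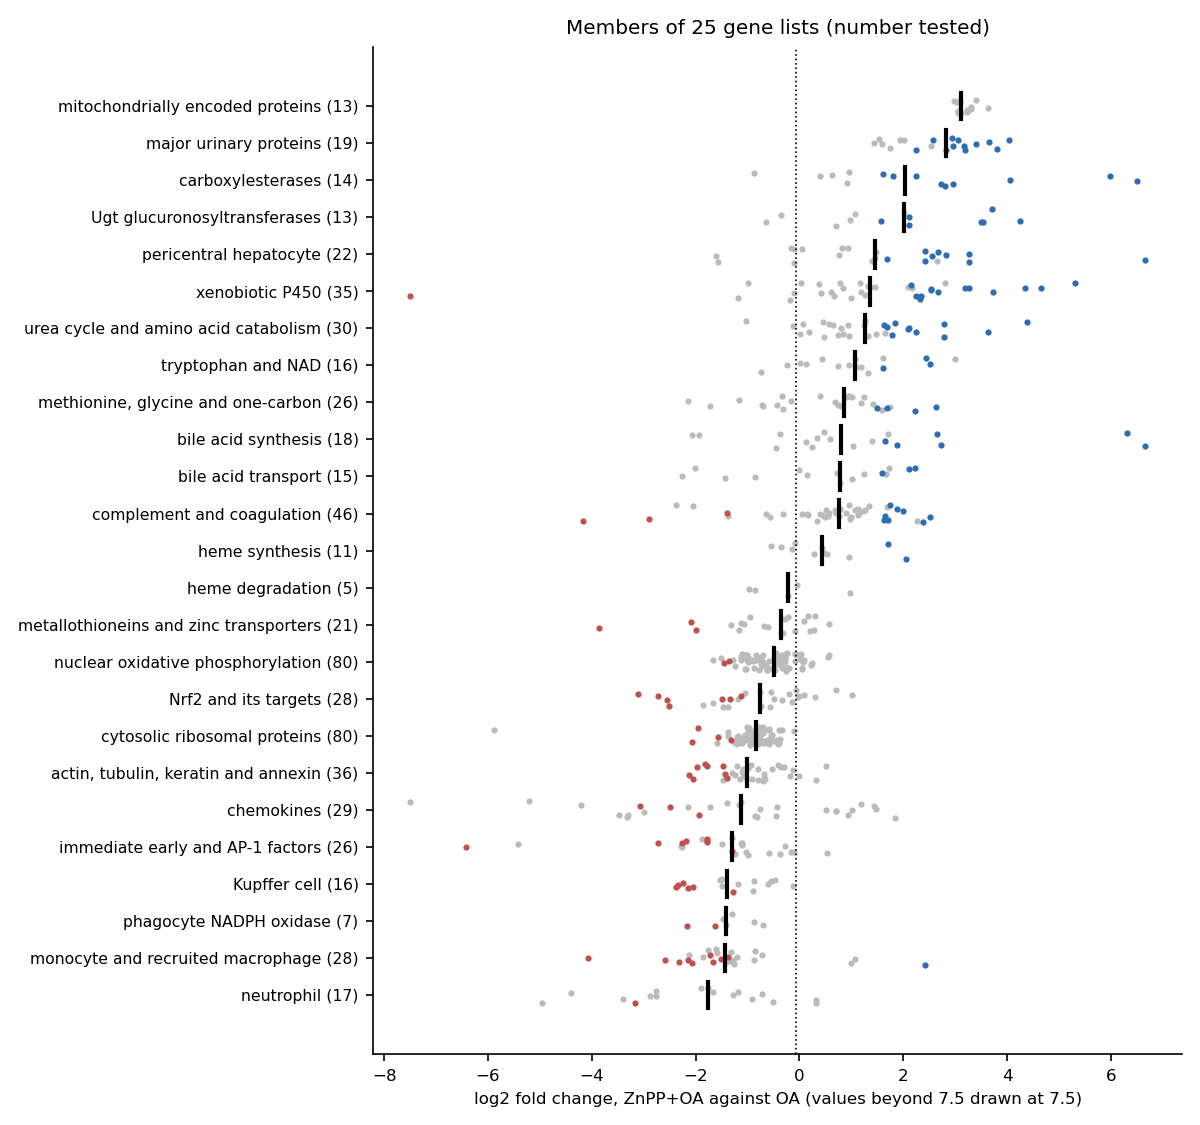
Log2 fold change of ZnPP+OA over OA for the members of 25 gene lists, 1 row a list, with higher genes in blue, lower genes in red, other members in grey, a black bar at the list median, a dotted line at the median of all genes (−0.07), and values beyond 7.5 drawn at 7.5. Blue points gather in the bile acid, P450, carboxylesterase, Ugt and amino acid lists and red points in the Nrf2, macrophage and AP-1 lists; with library totals alone the median of all genes is −1.85 and the list medians above 0 turn below 0 except those of carboxylesterases, Ugt enzymes, major urinary proteins and mitochondrially encoded genes.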

How the data were processed

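Livers were sequenced as stranded, paired poly(A) libraries. The authors deposited 1 table of 36119 genes with raw counts and FPKM per library, made, as far as the submitters' notes say, with HISAT2 2.2.1, StringTie 2.1.6 and cutadapt 1.9 on the mm10 build, and naming edgeR and DESeq2 without their use. FPKM as deposited are scaled by the authors to library totals, so a library rich in mitochondrial reads has lower FPKM of all other genes. They were used only for alternatives and for the levels of Hamp2. The 3 groups were fitted together with edgeR 4.0.16 (quasi-likelihood F test on the deposited counts, TMM factors, filterByExpr with a minimum of 10 counts, no block; R 4.3.3), with p-values adjusted by Benjamini-Hochberg over 18895 genes and a threshold of 0.05. The scripts were tested on simulated data. Alternatives used DESeq2 1.42.0, limma 3.58.1, other scalings and filters, a replicate block and each library left out.

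The comparison and the 62 gene lists were chosen with earlier results of these data known, and the lists were written from textbook knowledge. Named genes were, among called protein-coding genes without overlap whose mean reached 5 CPM in OA or ZnPP+OA, the 15 largest changes and the 8 most abundant of each direction. The 4 smallest p of every list and the full heme and bile acid lists were added. Cd14, Cfp, Cyp2a4, Cyp2a5, Cyp2c67, Cyp2e1, Cyp3a11, Krt5, Saa1, Stra6, Tnf and mt-Co1 were named after their values were seen. Not every gene that the rule takes is reported here. Promoter sequences came from RefSeq.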

Additional observations from a re-analysis of the deposited data

How the results depend on the processing

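The counts of genes called in ZnPP+OA against OA depended on the processing more than their direction did. No called gene changed sign with the median ratio size factors, the other filters on low counts, DESeq2, the replicate block, the fit of 6 libraries or any library left out, and 57 or 58 of the 542 did with library totals alone or with limma on FPKM. Higher and lower genes numbered 118 and 6317 with library totals alone, 708 and 762 with no filter, 545 and 321 with at least 10 counts in every library, 1000 and 627 with DESeq2, and 760 and 730 in a fit of the 6 compared libraries. With limma they numbered 91 and 7495 on log2(FPKM + 1), 103 and 6893 on log2(FPKM + 0.1), and 54 and 7524 on log2(FPKM + 1) with no filter. With 1 library left out, higher genes ranged from 32 to 483 and lower genes from 6 to 547: 32 and 13 without OA 2, 56 and 22 without OA 3, 185 and 107 without ZnPP+OA 1, 51 and 6 without ZnPP+OA 2, 106 and 35 without ZnPP+OA 3, and 483 and 547 without Cont 1. With Cont 1 and Cont 2 both left out, an alternative added after seeing the data, they were 652 and 816. Genes whose livers lay wholly above or below OA numbered 321 and 13416 with library totals alone and 168 and 9302 on FPKM, and those below 2132 with at least 10 counts in every library and 2280 with thinned counts, also added after seeing the data. The cause of these shifts was not tested. Same-numbered OA and ZnPP+OA libraries did not deviate together (correlations −0.021, −0.078 and −0.022), so the numbers were not read as pairs, and a fit with the number as a replicate block called 192 higher and 95 lower genes. Among named genes with an adjusted p under 0.05, log2 fold changes turned below 0 with library totals alone, log2(FPKM + 1), log2(FPKM + 0.1) and the unfiltered FPKM fit for Uros (−0.060, −0.041, −0.056 and −0.041), Slc27a5 (−0.036, −0.0057, −0.0048 and −0.0057), Abcb11 (−0.20, −0.18, −0.19 and −0.18), Ghr (−0.23, −0.15, −0.19 and −0.15) and Baat (−0.076, −0.044, −0.045 and −0.044). Of the named genes above that threshold, 8 with a log2 fold change above 0 turned below 0 with library totals alone: Abcc2, Akr1c6, Alb, Cyp27a1, Cyp46a1, Nr1h4, Slc25a38 and Ugt1a1. Abcc2 passed the threshold with the filtered FPKM fits (−1.59 and −1.73), and Hmox1 (−0.22) did so with library totals alone (−1.97) and those fits (−1.94 and −2.01). With 9417867 counts outside mitochondrial genes in the shallowest ZnPP+OA library, low genes in that group are the least precise.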

Other observations

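Some called genes belonged to none of the lists and were chosen after their values were seen. Sirt3, the main deacetylase of mitochondria, was at 16.2, 12.2 and 10.5 CPM in OA, 50.3, 62.0 and 49.1 CPM in ZnPP+OA and 34.6, 28.9 and 68.0 CPM in Cont. The ZnPP+OA livers were several times the OA livers and within the range of Cont (log2 fold change 2.05 ± 0.358, edgeR adjusted p = 0.0131, 0.0869 without OA 2). Selenbp2, a selenium-binding protein of hepatocytes with a near copy in Selenbp1, was at 24.2, 6.09 and 5.29 CPM in OA and 147, 221 and 184 CPM in ZnPP+OA (3.95 ± 0.713, adjusted p = 0.015, 0.0866 without OA 2). In the other direction Slpi, a secreted inhibitor of neutrophil proteases, was at 36.3, 140.0 and 83.8 CPM in OA, 15.0, 7.66 and 9.49 CPM in ZnPP+OA and 4.29, 16.0 and 15.5 CPM in Cont (−3.01 ± 0.565, adjusted p = 0.0167, 0.114 without ZnPP+OA 2). Vcam1, the adhesion molecule of activated endothelium, fell from 37.4, 59.7 and 79.5 CPM to 16.2, 8.33 and 19.5 CPM (−2.002, adjusted p = 0.0184, 0.107 without ZnPP+OA 2).

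Krt1, Krt10 and Flg, which are known from the epidermis, were called higher, and were picked after their values were seen, with no list behind them. Krt1, a keratin of the upper skin layers, was at 3.84, 2.35 and 1.53 CPM in OA, 8.80, 22.0 and 19.9 CPM in ZnPP+OA and 17.9, 40.03 and 5.05 CPM in Cont (log2 fold change 2.72, edgeR adjusted p = 0.0409, 0.202 without OA 3). Its partner Krt10 (2.62, adjusted p = 0.0414, 0.204 without OA 3) and Flg, filaggrin (2.78, adjusted p = 0.0184, 0.105 without OA 3), showed the same order of groups. In some called genes, picked in the same way, ZnPP+OA 3 stood apart from its group. Rn7s1, a 7SL RNA gene, was at 1.36, 0.479 and 0.279 CPM in OA and 5.60, 3.71 and 43.7 CPM in ZnPP+OA (4.66, adjusted p = 0.0184, 0.102 without OA 2), and its log2 fold change was 2.72 without ZnPP+OA 3. Gm10800, a predicted gene, was at 3.37, 3.41 and 0.604 CPM in OA and 11.3, 20.8 and 183 CPM in ZnPP+OA (4.87, adjusted p = 0.0278, 0.114 without OA 3), and 2.69 without ZnPP+OA 3. The part of the skin genes, of these genes and of the mitochondrial share in the other results was not tested.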
